A study of Rattus norvegicus with 30 samples.

Results

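The response of the perilesional cortex to traumatic brain injury (TBI) was compared with the response of the hippocampus in the same rats, 3 months after the operation. The comparison took the 20 cortical and hippocampal libraries of the 30 in the series, and tested for each gene whether the TBI effect in the cortex differed from the TBI effect in the hippocampus (the interaction of area and treatment). Lateral fluid-percussion injury (FPI) sends a pulse of fluid through an opening in the skull onto the unopened dura, here over the left parietal lobe. The animals were adult male Sprague-Dawley rats, 5 with TBI (rats 6 to 10) and 5 sham-operated (rats 1 to 5), and each rat gave 1 library per area. Both treatments shared the anaesthesia and the craniectomy, so that sham-operated rats differed from rats with TBI by the absence of the pulse and not of the surgery. The tissue labelled dorsal hippocampus was dissected as the dentate gyrus with part of CA3. Of 26404 Ensembl genes counted in each library, 17688 had enough reads in the cortex and hippocampus to be tested. Those that changed more in the cortex next to the lesion than in the hippocampus are called lesion-side genes below. The name does not mean a side of the brain, since the paper describes the hippocampus and thalamus as ipsilateral to the injury. Nor does it mean that the thalamus did not change.

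Lateral FPI leaves a cavity in the cortex beneath and around the impact, bordered by surviving tissue with reactive astrocytes, activated microglia and neurons that have lost part of their connections. The hippocampus lies below this cortex and is struck by the same pulse without forming the cavity. It loses hilar interneurons and other vulnerable cells, its mossy fibers can sprout, and it has been studied as a site where seizures after trauma may arise. Bulk tissue was sequenced in both areas, so fewer cells of a type and less RNA per cell cannot be told apart in any value given here. The tables hold gene identifiers without names, and which cell types or pathways the lesion-side genes belong to was not analysed here.

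The hippocampal libraries held 23903839 to 30446501 counts and the cortical libraries 25336207 to 29115203. No 2 libraries of a group were near-copies, the closest pair having a chi-square per degree of freedom of 15.1. Some hippocampal libraries stood apart. In sham-operated rats 4 and 5 the 10 most counted genes took 44.1% and 40.9% of all counts, against 9.95% to 16.4% in the other hippocampal libraries and 14.1% to 29.6% in the cortex. The study set aside hippocampal controls with a low alignment rate without saying which, and all 10 hippocampal libraries were used here. The hippocampal libraries of sham-operated rat 3 and rat 8 with TBI went against the other areas of the same rats. In cortex and thalamus alike, 37 genes parted rats 3 and 8 by at least 2 on the log2 scale. Of these, 15 also parted them by at least 1 in the hippocampus, and all 15 had the opposite sign there. The other 44 pairs of rats gave 5 reversed signs among 246 genes chosen in the same way. Among genes whose cortical levels did not follow the injury, the count was 8 of 8 for rats 3 and 8 and 3 of 46 for the other pairs. Whether these hippocampal libraries were exchanged between a sham-operated rat and a rat with TBI is not known from the labels. Such an exchange would change the hippocampal values with all libraries and the genes chosen by the difference between the areas. Labels were kept as deposited, and the main counts and hippocampal values are also given without these libraries.

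Between the areas, the TBI response of 537 genes differed (edgeR's quasi-likelihood test on all 20 libraries, Benjamini-Hochberg adjusted p under 0.05), 3.04% of the genes tested. The difference, the cortical minus the hippocampal log2 fold change, was positive for 256 of them (1.45%) and negative for 281 (1.59%). In the cortex 5147 genes changed (29.1%), of which 2488 rose (14.1%) and 2659 fell (15%). In the hippocampus no gene passed the same test, the smallest adjusted p being 0.220, and 1538 genes (8.7%) had an unadjusted p under 0.05, with 5.23% of the genes tested higher and 3.47% lower. DESeq2 called 116 hippocampal genes and limma's voom with sample weights 0. Thus most of the cortical response was not shown to differ from the hippocampal one. Of the genes that rose in the cortex, 255 (10.2%) had a different response in the hippocampus, and of those that fell 276 (10.4%).

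Lesion-side genes were those that passed both the test of the difference and the cortical test and changed more in the cortex. They numbered 530 of the 537 (3% of the genes tested), with 255 that rose in the cortex (1.44%) and 275 that fell (1.55%). In the plot of both responses the hippocampal fold changes ran from -1.29 to 1.80 for the genes that rose and from -0.22 to 0.64 for those that fell. With the hippocampal libraries of rats 3 and 8 left out, the difference was called for 122 genes (0.69%), of which 113 were lesion-side genes (0.639%), 66 higher and 47 lower, and all 113 were among the 530. There were 269 lesion-side genes without the hippocampal libraries of rats 4 and 5, and without all 4 of these libraries 25. Leaving out both areas of rat 2, 3 or 8 gave 113, 120 and 125. All 537 differences kept their sign in each of these settings, whereas the number past the threshold did not hold. Each setting shares most libraries with the fit that chose these genes, so the kept signs say little about stability. With the rat as a block, the count was 1004 lesion-side genes among 1048 genes with a difference.

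**Figure D1:**
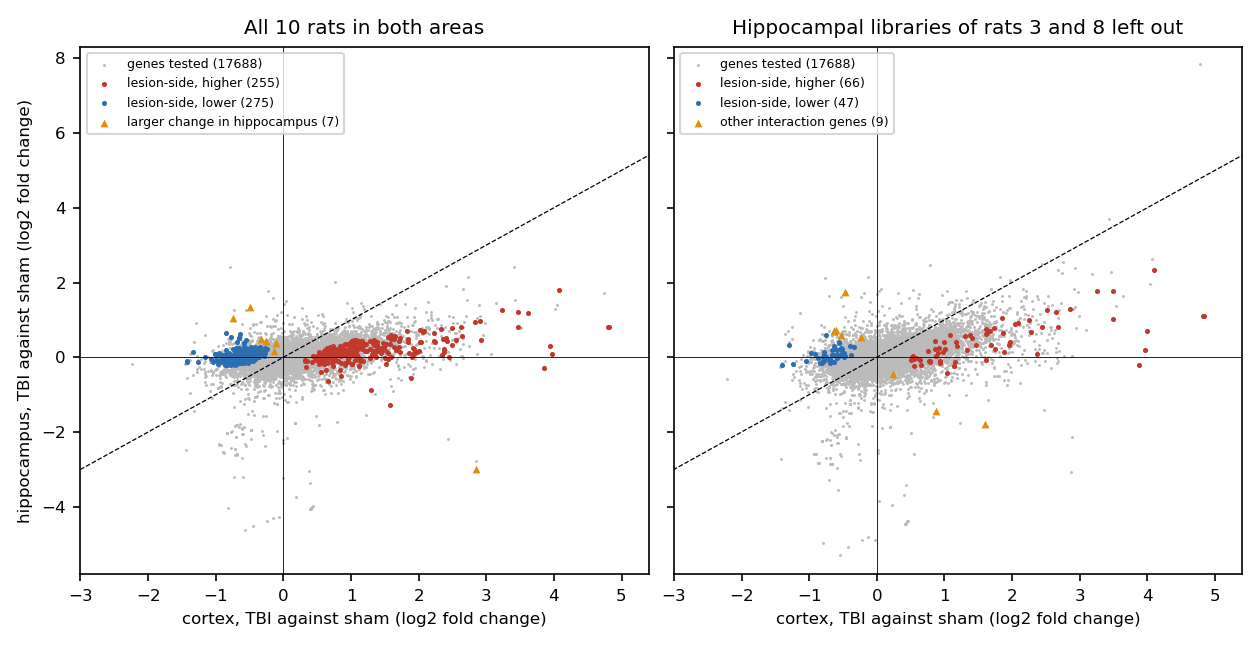
Each point is 1 of the 17688 genes tested, at its TBI against sham log2 fold change in the cortex (x axis) and in the hippocampus (y axis), with all libraries (left) and without the hippocampal libraries of rats 3 and 8 (right). The dashed line marks equal responses. The 255 higher (red) lesion-side genes have a hippocampal median of 0.15 and a range of -1.29 to 1.80, the 275 lower (blue) a median of 0.02, and 66 and 47 are left on the right.

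Among the lesion-side genes that rose, the cortical change had a median of 1.05 on the log2 scale (quartiles 0.73 and 1.52), and 137 of the 255 rose more than 2-fold and 35 more than 4-fold. Their hippocampal change had a median of 0.15 (quartiles 0.00 and 0.34). The difference between the areas therefore had a median of 0.89, with a median standard error of 0.21, and ran from 0.39 to 4.14. In the cortex all 5 TBI libraries lay above all 5 sham libraries for 245 of these genes, where 9.09% of all genes tested did so. In the hippocampus the same held for 1 of them, where 0.531% of all genes did so, and without rats 3 and 8, with 4 libraries against 4, for 73, where 5.18% of all genes did so. Since the cortical and hippocampal libraries chose these genes, the values describe them and test nothing further.

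With all libraries, the rise was not wholly absent from the hippocampus. The hippocampal fold change was positive for 193 of the 255 genes (75.7%), 71 of them with an unadjusted p under 0.05, against 6 with such a p in the opposite direction (5.23% and 3.47% of all genes tested were higher and lower at that p). The 95% interval of the hippocampal change included 0 for 178 genes, and its upper end was under 50% of the cortical log2 change for 182. Only 4 genes had a hippocampal change of more than 2-fold in the cortical direction and 0 of more than 4-fold. Leaving out the hippocampal libraries of rats 3 and 8 gave the 255 genes a median hippocampal change of 0.23, with 201 positive, and the upper end was under 50% of the cortical change for 111.

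The lesion-side genes that fell moved by less, and their hippocampal change was centred on 0. Their cortical change had a median of -0.58 (quartiles -0.71 and -0.48), and 9 of the 275 fell more than 2-fold. The hippocampal change had a median of 0.02 (quartiles -0.06 and 0.10) and was negative for 124 genes (45.1%). An unadjusted p under 0.05 was found for 3 in the cortical direction and for 18 in the opposite direction, where 3.47% of all genes tested were lower and 5.23% higher at that p. The 95% interval included 0 for 254 genes, and its lower end reached less than 50% of the cortical change for 258. In the cortex all TBI libraries lay below all sham libraries for 244 of them (9.12% of all genes tested), and in the hippocampus for 1 (0.458%), or for 8 without rats 3 and 8 (2.35% with 4 libraries against 4). Without the hippocampal libraries of rats 3 and 8 the median hippocampal change was -0.01, 142 genes were negative, and the bound was met by 182 genes. The cortical and hippocampal libraries chose these genes by the difference between the areas. A hippocampal change near 0 or opposite to the cortex is in part fixed by that choice, and the values are a description.

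For comparison, all 2488 genes that rose in the cortex had a median hippocampal change of 0.19 and 86.5% were positive there. All 2659 that fell had a median of -0.07, and 75.5% were negative. Without the hippocampal libraries of rats 3 and 8, 87.9% and 79.9% had the cortical sign. The larger the cortical rise, the larger was the hippocampal value. Cortical rises of up to 0.5 on the log2 scale came with a hippocampal median of 0.10, those of 0.5 to 1 with 0.21, those of 1 to 2 with 0.39 and the 104 rises above 2 with 0.74. These medians were 0.13, 0.32, 0.54 and 1.02 without the hippocampal libraries of rats 3 and 8. The share of lesion-side genes rose over the same bins from 1.48% to 10.8%, 17.2% and 33.7%. As the cortical change is a term of the difference that defines these genes, their share depends on it in part by definition. For cortical falls of up to 0.5, 0.5 to 1 and 1 to 2, the hippocampal medians were -0.06, -0.09 and -0.15 (-0.10, -0.11 and -0.23 without these libraries), and the shares of lesion-side genes 3.94%, 28.2% and 16.7%.

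The libraries were then described by the mean log2 CPM (counts relative to the scaled total of the library) of each set of genes, taken relative to the sham mean of the area. For the 255 genes that rose, the cortex stood at 1.41, 1.27, 1.19, 1.07 and 1.04 in rats 6 to 10, a mean of 1.19 ± 0.15 (SD, n = 5), with a sham SD of 0.08. The hippocampus of the same rats stood at 0.34, 0.27, -0.06, 0.14 and 0.20, a mean of 0.18 ± 0.15 (SD, n = 5). The sham-operated hippocampi stood at -0.15, 0.05, 0.21, 0.01 and -0.11 (SD 0.14). All cortical TBI libraries were far above their sham libraries, while the hippocampal groups overlapped, the lowest TBI library being rat 8 and the highest sham library rat 3. Without these, the hippocampal means were 0.24 ± 0.09 with TBI and -0.05 ± 0.10 in sham-operated rats (SD, n = 4 each). As the libraries left out had gone against the cortex and were the extremes of their groups here, the wider gap follows in part from that choice.

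For the 275 genes that fell, the cortex of rats 6 to 10 stood at -0.74, -0.51, -0.69, -0.59 and -0.50, a mean of -0.60 ± 0.11 (SD, n = 5). Their hippocampi stood at -0.02, 0.02, 0.06, 0.06 and 0.04, a mean of 0.03 ± 0.04 (SD, n = 5), inside the sham range of -0.08 to 0.11. When rats 3 and 8 were left out, the hippocampal mean with TBI was 0.02 ± 0.04 (SD, n = 4). Within each rat with TBI the cortex lay below the hippocampus, by between 0.53 and 0.74, and for the genes that rose it lay above, by between 0.83 and 1.25. In sham-operated rats the cortex minus the hippocampus ran from -0.12 to 0.10 for the genes that fell and from -0.21 to 0.24 for those that rose. These libraries chose both sets of genes by this difference, so the agreement among rats is in part fixed by the choice and is a description.

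**Figure D2:**
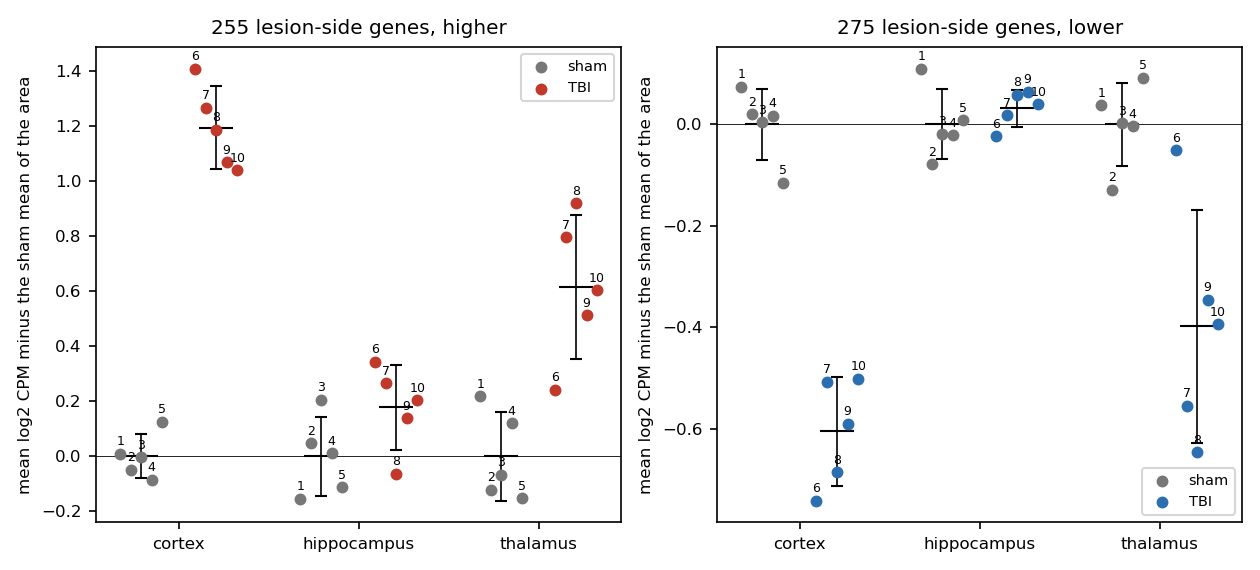
Mean log2 CPM of the 255 lesion-side genes that rose (left) and of the 275 that fell (right), minus the sham mean of each area (y axis), in every library of the cortex, hippocampus and thalamus (x axis). Grey points are sham-operated rats, coloured points rats with TBI, numbers are rats, and bars the mean and SD. Cortical TBI libraries sit at 1.04 to 1.41 and at -0.74 to -0.50, and hippocampal TBI libraries at -0.06 to 0.34 and at -0.02 to 0.06.

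Levels in the sham-operated rats are described next. There, 198 of the 255 genes that rose (77.6%) had a higher mean log2 CPM in the hippocampus than in the cortex, where 50.4% of all genes tested and 56.8% of all genes that rose in the cortex did so. In 63 of them (24.7%) the hippocampus was more than 2-fold higher, against 6.07% of all genes tested, and in 2 the cortex was. By rat, the hippocampus was higher for 67.8%, 81.6%, 85.1%, 73.7% and 63.1% of the 255 genes in rats 1 to 5. Among all genes that rose in the cortex these shares were 50.2%, 55.8%, 66.9%, 55.8% and 48.6%. For the 255 genes the share was 74.9% without the hippocampal library of rat 3 and 79.2% without those of rats 4 and 5. The sham libraries took part in choosing the 255 genes, so the agreement among these rats is in part fixed by the choice. The median level of the 255 genes was 2.44 in the sham-operated cortex, 3.43 in the cortex with TBI, 3.05 in the sham-operated hippocampus and 3.23 in the hippocampus with TBI, all as log2 CPM. Of the 198 genes, 147 had the higher mean level in the cortex among rats with TBI and 51 kept it in the hippocampus, while the other 57 of the 255 were higher in the cortex in both groups.

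The genes that fell showed less of an initial difference. The sham-operated hippocampus was higher for 113 of the 275 (41.1%), and the hippocampus with TBI for 202 (73.5%). Over all genes that fell in the cortex these shares were 50.2% and 71.9%. In 45 genes (16.4%) the sham-operated cortex was more than 2-fold higher, against 5.70% of all genes tested. Their median levels were 6.02 and 5.49 log2 CPM in the sham-operated and TBI cortex, and 5.75 and 5.72 in the hippocampus. The sham libraries are part of the test that chose the genes, so these levels are a description.

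The 2 directions were also found at different levels of expression. When the genes tested were split into 5 bins of equal size by their mean level over the 20 libraries, genes that rose made up between 1.02% (the highest bin) and 2.09% (the second lowest) of the genes. Genes that fell made up 0.141%, 0.396%, 0.933%, 1.87% and 4.44% from the lowest bin to the highest. The median standard error of the difference narrowed over these bins from 0.41 to 0.12, so smaller differences could pass the test at high levels. Without the hippocampal libraries of rats 3 and 8 the genes that fell made up 0.0283% to 0.904% of a bin, and those that rose 0.141% to 0.565%.

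**Figure D3:**
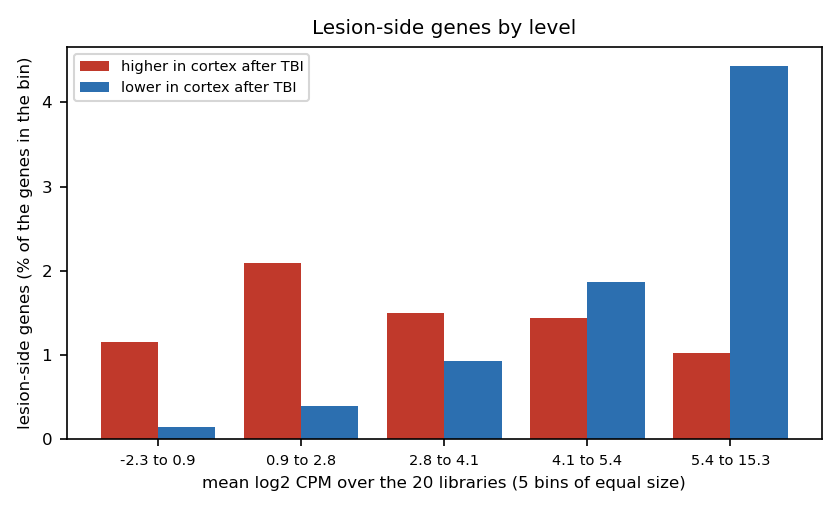
Share of lesion-side genes (y axis, % of the genes in the bin) in 5 bins of equal size by mean log2 CPM (x axis). The share that fell (blue) goes from 0.141% to 4.44%, and the share that rose (red) stays between 1.02% and 2.09%.

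The clearest single genes are given by identifier, as the largest differences among lesion-side genes whose cortical libraries did not overlap. ENSRNOG00000015867 was close to absent from the sham-operated cortex, at 0.0479, 0.0382, 0.131, 0.111 and 0.100 CPM in rats 1 to 5, which is 1 to 4 reads per library. In the cortex of rats 6 to 10 it stood at 1.80, 1.29, 0.981, 1.08 and 1.49 CPM. Summed over the cortex, 218 reads with TBI stood against 12 in sham-operated rats, a ratio of 18.1 per counted read (95% exact Poisson interval 10.2 to 35.7, for counting error only). The hippocampus held more of it throughout, 3.71 to 5.68 CPM in sham-operated rats and 2.70 to 4.52 CPM in rats with TBI, with overlapping groups. The difference between the areas was 4.14 on the log2 scale (SE 0.37, adjusted p = 1.48e-06 by edgeR's quasi-likelihood test with Benjamini-Hochberg adjustment), made of 3.85 in the cortex and -0.29 in the hippocampus (95% interval -0.66 to 0.09). It was 4.08 without the hippocampal libraries of rats 3 and 8. Its cortical level after TBI was thus still below every hippocampal library.

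ENSRNOG00000045772 also rose from a low cortical level. Sham-operated cortices held 2.30, 2.22, 5.32, 1.26 and 2.27 CPM, and cortices with TBI 119.0, 104, 57.1, 47.0 and 56.4 CPM. The hippocampus held 27.9, 33.3, 40.2, 30.5 and 20.7 CPM in rats 1 to 5 and 84.6, 64.9, 25.9, 47.5 and 45.6 CPM in rats 6 to 10. Except for rat 8, every hippocampus with TBI was above all sham-operated ones. The difference between the areas was 4.01 (SE 0.53, edgeR Benjamini-Hochberg adjusted p = 0.00179), with 4.82 in the cortex and 0.81 in the hippocampus (95% interval 0.08 to 1.54). These were 1.10 for the hippocampus and 3.74 for the difference when the hippocampal libraries of rats 3 and 8 were left out. The hippocampal value did not pass the test over all genes (edgeR Benjamini-Hochberg adjusted p = 0.516). Another identifier stayed within 1.11-fold of it in all 20 libraries, so how reads were divided between them is uncertain.

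Among the genes that fell, ENSRNOG00000017539 had 5.17 to 6.70 CPM in the sham-operated cortex and 2.01 to 2.81 CPM in the cortex with TBI. In the hippocampus it was low in both groups, 0.845 ± 0.425 CPM in sham-operated rats and 0.932 ± 0.221 CPM in rats with TBI (SD, n = 5 each). The difference was -1.47 (SE 0.32, edgeR Benjamini-Hochberg adjusted p = 0.0181), and -1.63 without the hippocampal libraries of rats 3 and 8. ENSRNOG00000009540 fell from 2.65 ± 0.638 to 0.979 ± 0.235 CPM in the cortex (SD, n = 5 each), with no overlap of libraries, and stood at 1.79 ± 0.467 and 1.67 ± 0.377 CPM in the hippocampus. Its difference was -1.33 (SE 0.31, edgeR Benjamini-Hochberg adjusted p = 0.0226), and -1.25 without the hippocampal libraries of rats 3 and 8, where the adjusted p was 0.0866.

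**Figure D4:**
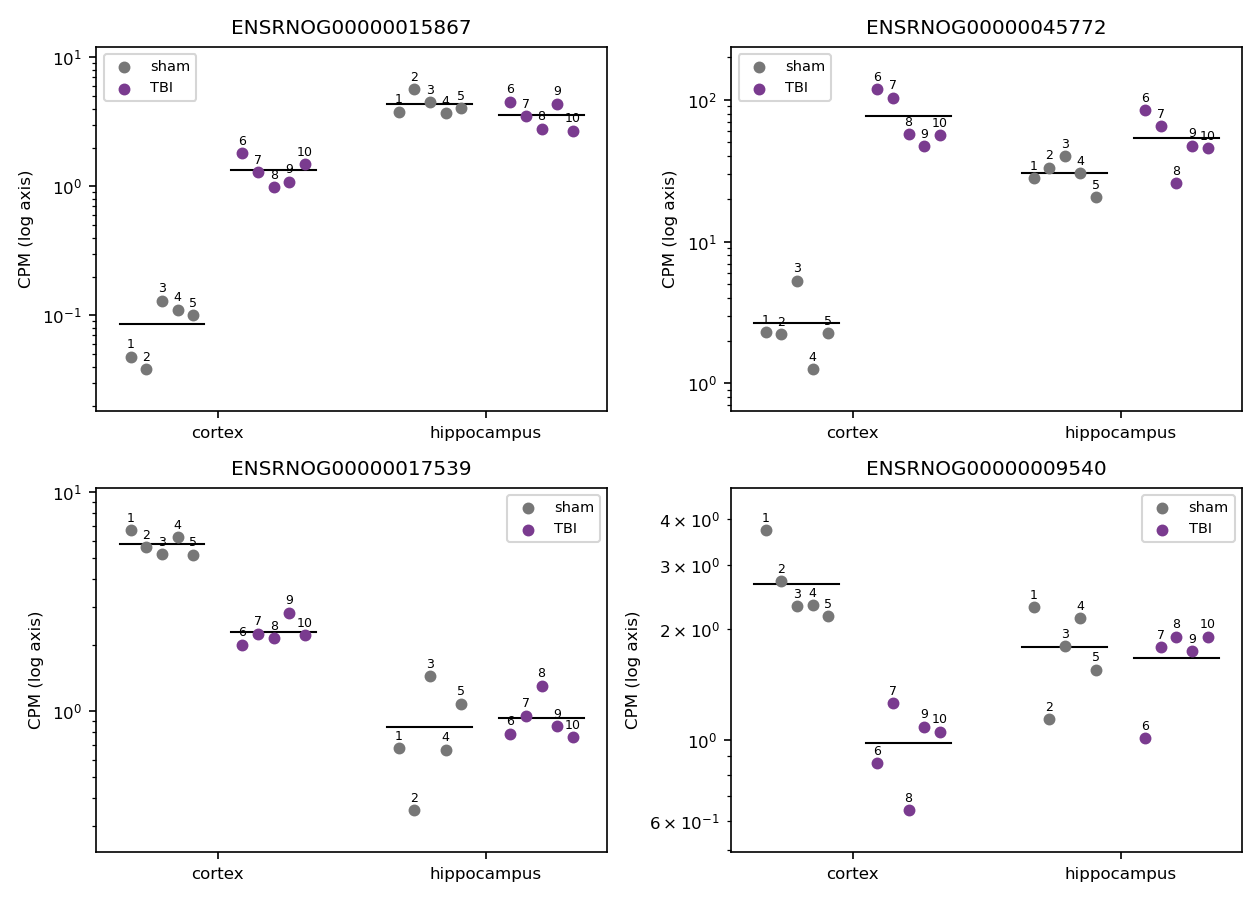
CPM (y axis, log scale) of the 4 identifiers in each cortical and hippocampal library (x axis). Grey points are sham-operated rats, purple points rats with TBI, numbers are rats and lines group means. The 2 upper identifiers are lower in the sham-operated cortex than in any hippocampus, and the 4 cortical pairs of groups do not overlap.

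The 7 genes with a difference that were not lesion-side genes changed more in the hippocampus, with the opposite sign in the cortex. In the hippocampus 6 had a positive fold change and 1 a negative one, from -2.98 to 1.36 on the log2 scale, with no adjusted p under 0.05 there. They had a median mean level of 2.42 log2 CPM. Without the hippocampal libraries of rats 3 and 8, 2 of the 7 kept the difference and 3 passed the hippocampal test.

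The hippocampal test itself depended on the libraries that went against the other areas. These were chosen for opposing the cortex and thalamus, partly on genes that followed the injury, so the agreement with the cortex after leaving them out is in part fixed by the choice and is a description. Without the hippocampal libraries of rats 3 and 8, 333 hippocampal genes passed it (1.88% of the genes tested), 287 higher and 46 lower. Of these 333, 290 (87.1%) also passed in the cortex in the same direction, where 4774 of all genes tested (27%) passed in the cortex in that fit, so that the 290 are 6.07% of the cortical list, and 3 passed in the opposite direction. The cortical change was the larger for 245 of the 290. The 270 that rose in both areas had a median of 0.69 in the hippocampus and 1.02 in the cortex. Of the 255 lesion-side genes that rose with all libraries, 50 (19.6%) were among the 333, and of the 275 that fell, 1 (0.364%). Of those 50, 49 were called in the cortical direction. In the same fit the difference between the areas was called for 27 of the 333.

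A smaller set was called under each of 5 settings. With all libraries, without the hippocampal rats 3 and 8, without the hippocampal rats 4 and 5, with DESeq2 and with the rat as a block, 104 genes were called each time, 60 that rose and 44 that fell. Other settings left fewer, 25 without all 4 of these hippocampal libraries and 31 without both areas of rats 3 and 8. The 60 had a cortical median of 1.51 and a hippocampal median of 0.22, or 0.37 without rats 3 and 8. Even here 48 of 60 were positive in the hippocampus, and 21 passed the hippocampal test in that direction without rats 3 and 8. The 44 had medians of -0.67 and 0.05, 15 were negative in the hippocampus and 0 passed that test as lower. With each rat left out in turn, 82 of the 530 were called every time, 42 that rose and 40 that fell.

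**Figure D5:**
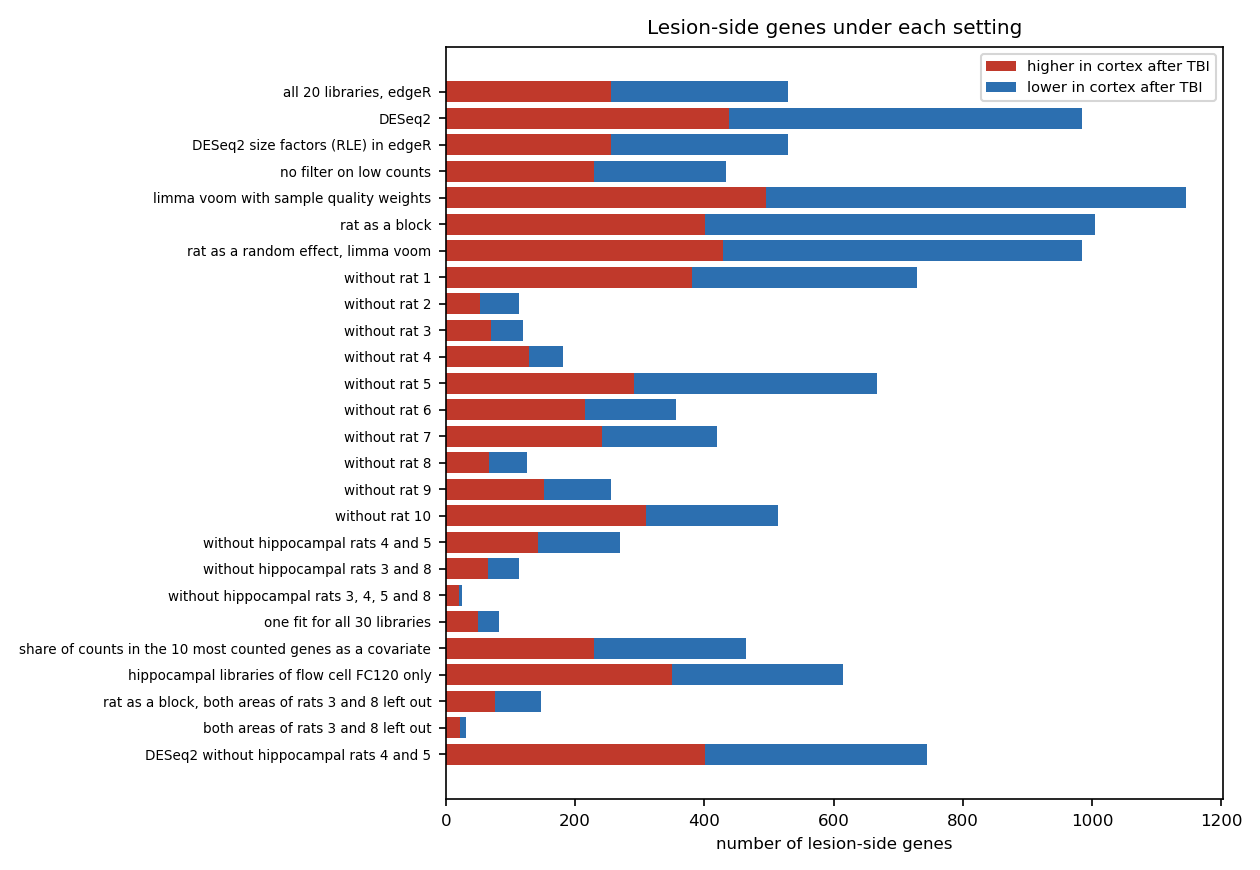
Number of lesion-side genes (x axis) under each setting (y axis), split into genes that rose (red) and fell (blue) in the cortex. With all 20 libraries there are 530, with limma's voom and sample weights 1146, and without the hippocampal rats 3, 4, 5 and 8 there are 25.

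The thalamus, which is connected to the injured cortex and was not used to choose the genes, gave a further view in the same rats. Of the lesion-side genes that rose, 249 were testable there, and their thalamic fold change had a median of 0.56 on the log2 scale and was positive for 234. Of those that fell, 267 were testable, with a median of -0.43 and 245 negative. All genes that rose in the cortex had a thalamic median of 0.42, and all that fell -0.25. The mean of the genes that rose stood at 0.24, 0.80, 0.92, 0.51 and 0.60 above the sham mean in thalami of rats 6 to 10, and that of the genes that fell at -0.05, -0.55, -0.65, -0.35 and -0.39. Rat 6, whose cortex stood farthest from the sham mean in both sets, had the smallest thalamic values.

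By edgeR's quasi-likelihood test in the thalamus alone, 88 of the 249 passed as higher (35.3%, where 3.82% of all genes did) and 61 of the 267 as lower (22.8%, where 1.86% did), with 0 in either opposite direction. Among all genes that rose or fell in the cortex these shares were 21.0% and 8.03%. With DESeq2 the counts were 123 and 113. They moved with the whole thalamic test, which called 934 genes in all with every rat. Without rat 3, 5, 7 or 8 it called 0 genes, and without rat 10 it called 73, with 16 and 0 of the lesion-side genes. Without rat 6 it called 2412 genes, with 131 and 136 lesion-side genes, and without rats 1, 4 and 9 it called 667, 458 and 553, with 26, 14 and 23 of the genes that fell. The medians held better, between 0.45 and 0.62 and between -0.54 and -0.38 with each rat left out. The thalamic change had the cortical sign for 94.0% of the lesion-side genes that rose and 91.8% of those that fell, where the shares were 92.2% and 89.3% over all genes that rose or fell in the cortex and 74.4% over all genes tested. Of the identifiers above, ENSRNOG00000045772 stood at 25.1 to 50.9 CPM in sham-operated thalami and at 57.7 to 235 CPM in thalami with TBI, without overlap, while ENSRNOG00000015867 stood at 0.658 to 2.05 and at 0.519 to 2.85 CPM. ENSRNOG00000009540 stood at 3.21 to 5.18 and at 1.33 to 3.465 CPM. Its thalamic log2 fold change was -0.69 (edgeR Benjamini-Hochberg adjusted p = 0.118). ENSRNOG00000017539 was not among the genes tested in the thalamus.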

How the data were processed

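mRNA-seq libraries of 3 brain areas from 10 rats were deposited, 1 table per area. The authors aligned reads to the Rnor_5.0 genome with STAR and deposited raw counts of reads per Ensembl gene. The counting tool and the use of strand are not given in the sources used here, and cortex and hippocampus were read on the same instrument. All columns were matched to samples by name, and 0 were left unused. Genes were kept by filterByExpr (minimum count 10, minimum total 15), scaled by TMM and tested by the robust quasi-likelihood test of edgeR 4.0.16 in R 4.3.3, with Benjamini-Hochberg adjustment over all genes tested and a threshold of 0.05, on 1 fit of 4 groups (biological coefficient of variation 0.153). The thalamus was fitted alone. CPM used TMM-scaled library sizes and log2 CPM a prior count of 3. Standard errors were derived from the quasi-likelihood F statistic. Depth was 23903839 to 30446501 counts per library in cortex and hippocampus, and 21992859 to 31799879 in the thalamus. The same rats gave both areas, so the rat pairs the libraries by design. Deviations of libraries from the same rat correlated at a mean of 0.143 over 12261 genes, from -0.05 to 0.47 (highest in rats 6 and 7), and in 6 of 10 rats another rat correlated higher.

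The comparison and its gene lists were chosen with earlier results of these data known. Alternatives were DESeq2 1.42.0, its size factors, limma 3.58.1 voom, no filter, the rat as a block, 1 fit for 30 libraries, the share of the 10 most counted genes as a covariate, and libraries or rats left out. Those added after seeing the data were hippocampal libraries of 1 flow cell, rats 3 and 8 left out of both areas with and without the block, DESeq2 without hippocampal rats 4 and 5, and the thalamic settings. The procedures were tested on simulated counts.

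Identifiers matched to a symbol numbered 0, so gene lists, cell type markers, promoters and positions were not analysed here. The planned rule for named genes took the 15 largest differences in each direction at a mean of at least 1 CPM, with non-overlapping cortical libraries. Only the first 2 in each direction are given.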

Additional observations from a re-analysis of the deposited data

Results flagged for a closer look

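The TBI response of 537 genes differed between cortex and hippocampus by the test of the difference itself. The 4 identifiers named above are among them, with differences of 4.14 for ENSRNOG00000015867, 4.01 for ENSRNOG00000045772, -1.47 for ENSRNOG00000017539 and -1.33 for ENSRNOG00000009540.

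Values that stood apart from their group were looked for with Dixon's ratio in 32 groups of libraries, and 2 were found, where chance gives about 1 in 20 groups. ENSRNOG00000045772 was at 5.32 CPM in the cortex of sham-operated rat 3, above the other sham-operated cortices. ENSRNOG00000009540 was at 1.01 CPM in the hippocampus of rat 6, below the other hippocampi with TBI.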

How the results depend on the processing

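The counts of genes depended on the libraries and the tool, and no named difference changed sign. Genes with a difference and lesion-side genes numbered 537 and 530 with all libraries, 1009 and 984 with DESeq2, 1179 and 1146 with voom and sample weights, 273 and 269 without hippocampal rats 4 and 5, 122 and 113 without hippocampal rats 3 and 8, 34 and 25 without these 4, and 85 and 82 in 1 fit of 30 libraries. With the rat as a replicate block they were 1048 and 1004, as a random effect 1017 and 984, and with rats 3 and 8 left out of both areas 152 and 147 with the block and 37 and 31 without it. With each rat left out in turn, genes with a difference numbered 116 to 754, lesion-side genes 113 to 730, cortical genes 4019 to 5145 and hippocampal genes 0 to 114. Rats 2, 3, 4, 8 and 9 moved the count of lesion-side genes by over 1.5 times, to 113, 120, 181, 125 and 256. Hippocampal genes numbered 0 with all libraries, 114 without rat 3, 28 without rat 8, 116 with DESeq2, 1 with DESeq2 and without hippocampal rats 4 and 5, 333 without hippocampal rats 3 and 8, 128 without these 4, and 278 with rats 3 and 8 left out of both areas. ENSRNOG00000017539 lost its call in the fit of 30 libraries and without rats 2, 4 or 8, and ENSRNOG00000009540 lost it in 9 of 25 alternatives. The causes of these shifts were not tested. The standard error of the difference was larger at low mean levels, and whether depth limited what could be called there was not tested.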
